A study of Mus musculus with 16 samples.

Results

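Transcripts of 5 classical cadherins (Cdh1, Cdh2, Cdh3, Cdh5 and Cdh11) and 3 catenins (Ctnnb1, Ctnna1 and Ctnnd1) were followed in cultured mouse germline stem cells. These 8 genes, called members here, were chosen by name, and their symbols were looked up among the 27128 genes of each library. All cells carried a transgene that drives EGFP from Pou5f1 (Oct4) sequences, and the labelled background is B6;CBA-Tg(Pou5f1-EGFP)2Mnn/J. Oct4-positive, KIT-negative germ cells from donors at postnatal day 5.5 were sorted and grown in StemPro-34 SFM with GDNF, bFGF and EGF. The feeder-removal experiment had cells on a mouse embryonic fibroblast (MEF) layer, called day 0 here, and cells 4 and 9 days after transfer from MEF to Matrigel, a basement membrane extract. The density experiment compared Matrigel at 0.1 µg/cm2, whose culture is called epithelial-like, with Matrigel at 10 µg/cm2, whose culture is called mesenchymal-like. The sorted experiment had cells from Matrigel at 10 µg/cm2, separated by GFP into a low, a mid and a high fraction. The inhibitor experiment had cells on MEF given DMSO, the solvent, or UNC0638, an inhibitor of the histone methyltransferase G9a, at 0.5, 1 or 2 µM for 48 hours. Each of these 12 groups was 1 library, so differences are given without replicate error and without p-values. The labels do not say whether feeder cells were removed before RNA was extracted.

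Classical cadherins are transmembrane proteins that bind cadherins on neighbouring cells through their extracellular domains and so hold cells together at adherens junctions. Their cytoplasmic tails bind p120-catenin, which slows removal of the cadherin from the membrane, and beta-catenin, which recruits alpha-catenin and through it the actin cytoskeleton. Beta-catenin is also the transcriptional effector of canonical Wnt signalling. Epithelia are known for E-cadherin, many mesenchymal cells for N-cadherin or cadherin-11, and a switch from E- to N-cadherin is a textbook feature of epithelial-mesenchymal transition. In the testis, E-cadherin has been used as a surface marker of undifferentiated spermatogonia.

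Library totals ran from 4335185 to 12019651 expected counts. Levels of 1 gene in different libraries are given as CPM (counts brought to 1 shared library size), and levels of different genes as the deposited TPM, which is per length. Each comparison is the log2 ratio of CPM + 1, which understates the change of low genes, and a gene is called higher or lower at 2-fold or more. The interval after each ratio is the 95% Clopper-Pearson interval of the read split between the 2 libraries, on the log2 scale and without the added 1. Printed folds also leave out the added 1, so those of low genes exceed what the ratio beside them gives. Reads were amplified without molecular identifiers, so these intervals cover counting error only, not differences between cultures. A level of 3 counts, the smallest taken as visible, was 0.238 to 0.724 CPM. Of the 8 genes, 7 passed the filter of a mean of 1 CPM over the 12 libraries, as did 14301 genes in all.

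The label of germline stem cells was checked against 12 germ cell markers. All of them had more than 3 counts in all 12 libraries, and their summed level was 4485 to 6153 CPM. The summed level of 12 fibroblast markers, which also mark mesenchymal cells, ran from 83.8 CPM in the GFP-low fraction to 4781 CPM in the mesenchymal-like library, and was 2563 CPM with DMSO. The summed level of 8 myeloid markers was 1745 CPM in the GFP-low, 1550 in the GFP-mid and 207 in the GFP-high fraction and 5.50 to 38.9 CPM elsewhere. Endothelial markers summed to 68.6 to 134 CPM, smooth muscle and peritubular markers to 18.8 to 284 CPM, and Sertoli cell markers to 4.89 to 27.7 CPM. In bulk RNA, fewer cells of a type and less RNA per cell cannot be told apart. Nor can an experiment be told apart from a batch, since no group occurs in more than 1 experiment.

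P-cadherin (Cdh3), not E-cadherin, was the most abundant of the 5 cadherins in 11 of the 12 libraries. On the deposited TPM scale Cdh3 was at 12.1, 16.6 and 16.7 at days 0, 4 and 9, and at 39.7 in the epithelial-like and 30.2 in the mesenchymal-like library. It was at 46.5 TPM in the GFP-low, 22.5 in the GFP-mid and 22.7 in the GFP-high fraction, and at 33.3 TPM with DMSO and 22.6, 17.6 and 17.9 TPM with 0.5, 1 and 2 µM UNC0638. Cdh3 transcripts were thus lowest at day 0 and highest in the GFP-low fraction. E-cadherin (Cdh1) was lower on the same scale in every library, between 3.40 TPM in the epithelial-like library and 5.62 TPM with DMSO. Cdh3 led Cdh1 by 2.53-fold at day 0 (counting interval 1.97 to 3.26), which was its smallest lead over Cdh1 among the libraries where Cdh1 came second.

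The summed TPM of the 5 cadherins ran from 19.8 at day 0 to 110 in the mesenchymal-like library. Cdh3 held 61.0%, 63.0% and 62.1% of it at days 0, 4 and 9, and 62.9%, 63.0%, 63.9% and 60.6% with DMSO and the rising doses of UNC0638. Its share was 80.6% in the epithelial-like library and 87.6%, 79.5% and 69.2% in the fractions with low, mid and high GFP. In the mesenchymal-like library the order changed: N-cadherin (Cdh2) held 55.0%, Cdh3 27.4%, Cdh11 13.8% and Cdh1 3.77%. The lead of Cdh2 over Cdh3 there was 2.01-fold (counting interval 1.75 to 2.31), whereas Cdh3 led Cdh2 8.60-fold (6.54 to 11.5) in the epithelial-like library. Cdh1 held its largest share at day 0, 24.2%.

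A wider set of 18 classical cadherins, chosen after the data were seen, changed which cadherin led. M-cadherin (Cdh15), best known from muscle, was at 41.7, 43.6 and 42.2 TPM at days 0, 4 and 9, above Cdh3 in each. Cdh15 also led narrowly at 1 and 2 µM UNC0638, at 17.8 and 19.03 TPM against 17.6 and 17.9 TPM for Cdh3. Cdh3 led in 6 of the 12 libraries of this wider set and Cdh2 in the mesenchymal-like library. In the GFP-high fraction the lead of Cdh3 was narrow, at 22.7 against 21.0 TPM for Cdh15. No counting interval is given for the order of Cdh3 and Cdh15. The 5 cadherins followed here made up 27.1% to 78.5% of the summed TPM of the 18.

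**Figure D1:**
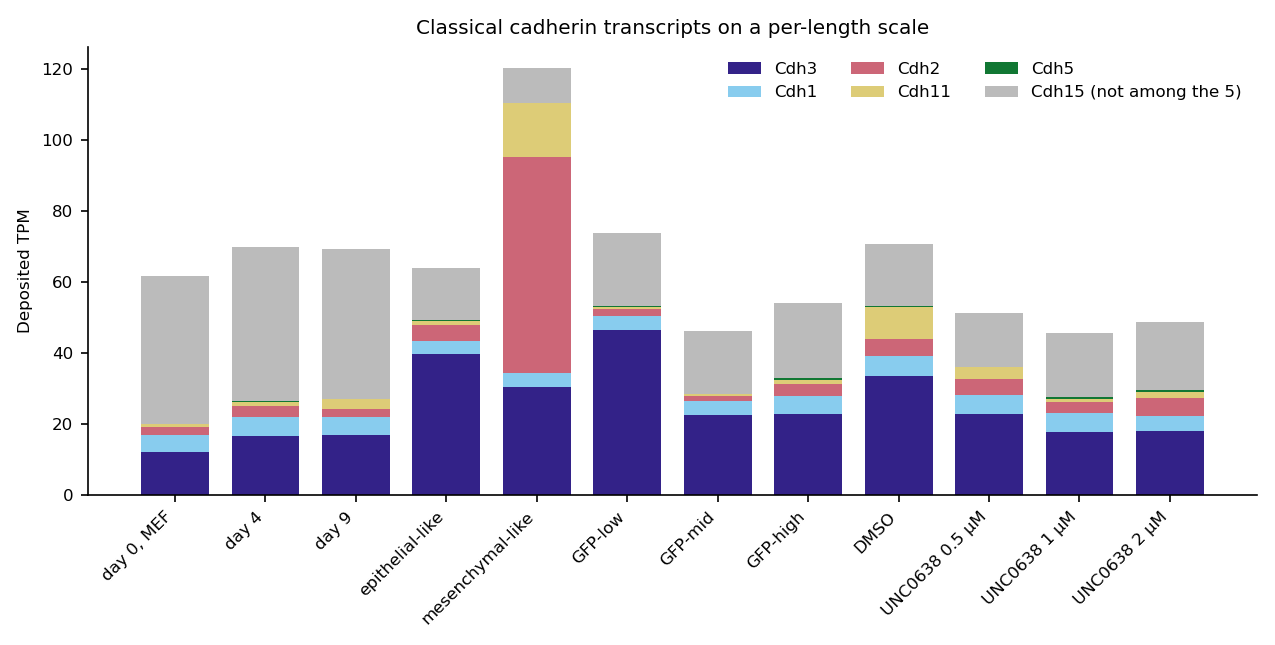
Deposited TPM (vertical axis, from 0) of the 5 cadherins and of Cdh15 in each of the 12 libraries (horizontal axis); each bar is 1 library and stacks the TPM of the single genes. Cdh3 is the largest of the 5 coloured segments except in the mesenchymal-like library, where Cdh2 makes up 55.0% of them. Cdh15 in grey is the largest segment at days 0, 4 and 9 and, narrowly, at 1 and 2 µM UNC0638.

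Cdh3 and Cdh1 lie next to each other in the mouse genome. On chromosome 8 of GRCm38.p6, Cdh3 spans chr8:106510852-106556911 and Cdh1 spans chr8:106603350-106670247, with 46438 bases and 0 protein-coding genes of the RefSeq table between them. Cdh5 (chr8:104101613-104144504) and Cdh11 (chr8:102632095-102785493) are on the same chromosome. Ctnnb1 spans chr9:120933400-120960507 and Ctnnd1 spans chr2:84587096-84658977, and Cdh2 and Ctnna1 are on chromosome 18. Between its highest and lowest library in CPM, Cdh3 differed 3.76-fold and Cdh1 1.51-fold.

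**Figure D2:**
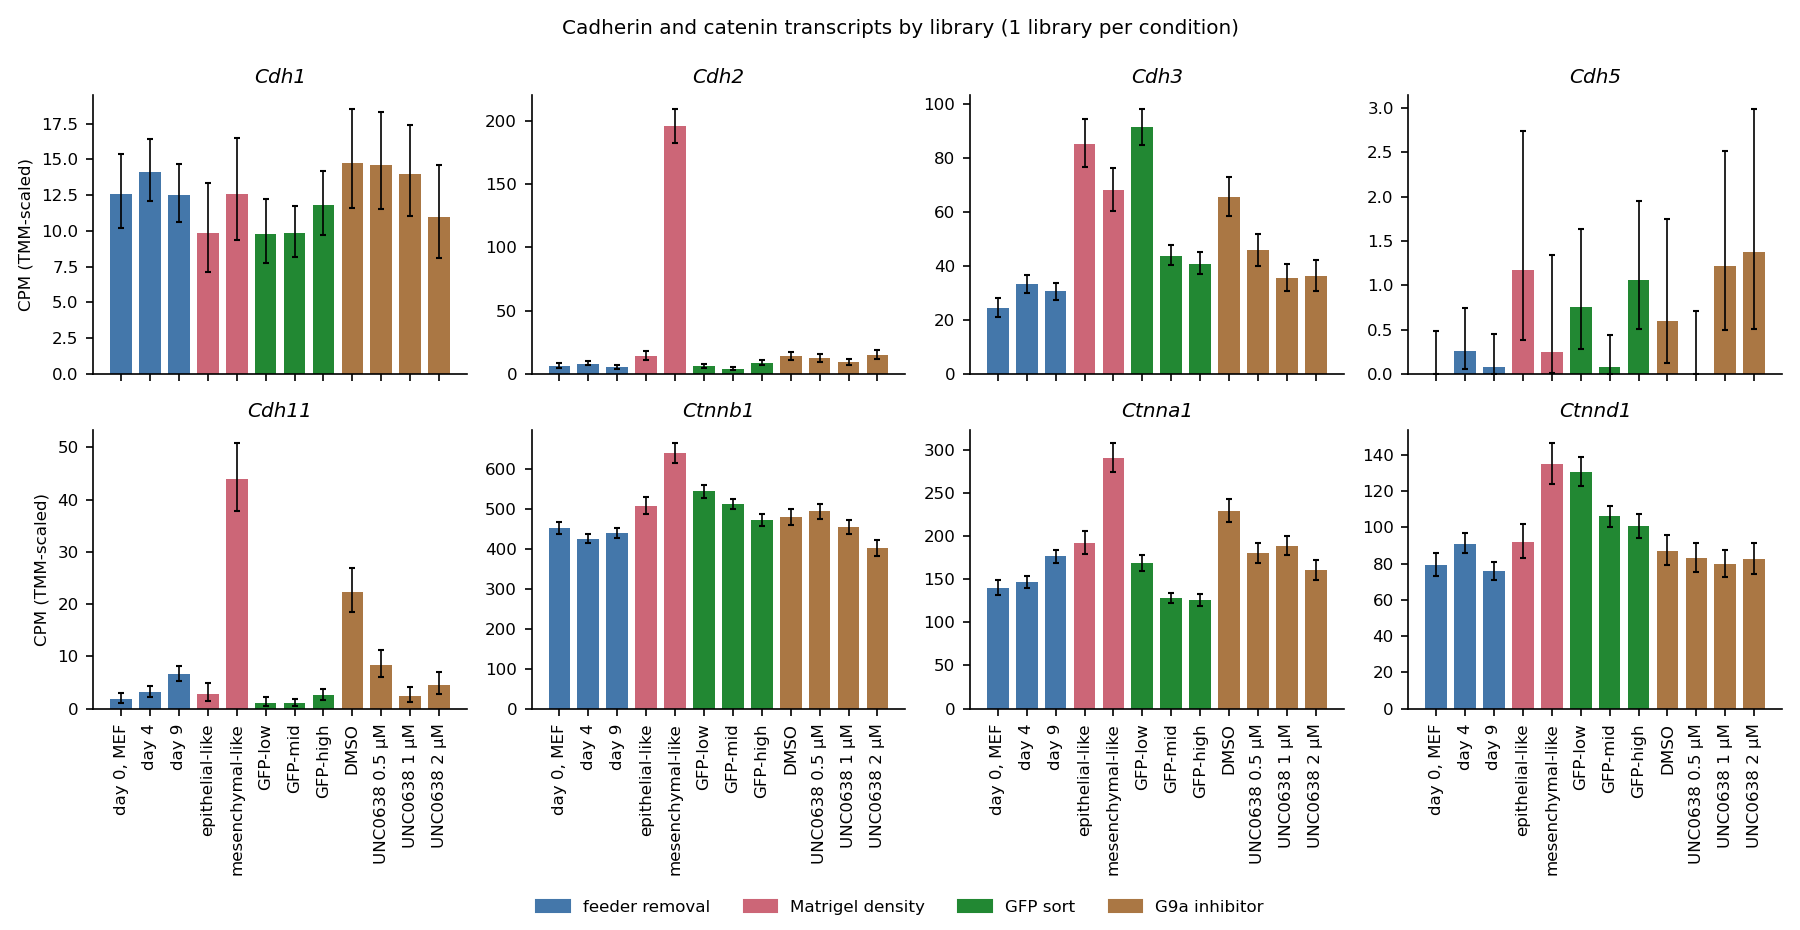
CPM of each of the 8 genes (1 panel per gene, linear vertical axis from 0) in the 12 libraries (horizontal axis, coloured by experiment); bars are single libraries and error bars are 95% Poisson intervals of the counts. Cdh2 and Cdh11 peak in the mesenchymal-like library at 196 and 43.9 CPM, while Cdh1 stays between 9.78 and 14.8 CPM.

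Cdh1 varied least of the 4 cadherins that passed the filter. It was at 12.6, 14.1 and 12.5 CPM at days 0, 4 and 9, at 9.86 CPM in the epithelial-like and 12.6 CPM in the mesenchymal-like library, at 9.78, 9.82 and 11.8 CPM in the 3 GFP fractions, and at 14.8, 14.6, 13.96 and 11.0 CPM with DMSO and 0.5, 1 and 2 µM UNC0638. These levels rested on 42 to 167 counts. In the order of its 12 levels, 0 of 11 neighbouring pairs could be told apart beyond counting error. Levels farther apart in that order could differ beyond it: the Poisson intervals at day 4 (12.1 to 16.4 CPM) and in the GFP-mid fraction (8.17 to 11.7 CPM), which belong to different experiments, did not overlap. Its log2 ratio was between -0.39 and 0.32 in the 8 comparisons, and all 8 counting intervals included 0, so within these comparisons no difference in E-cadherin transcripts was detectable at this depth. The widest interval was -0.27 to 0.97, in the density comparison, and the one reaching lowest was -0.98 to 0.12, at 2 µM against DMSO, so differences of nearly 2-fold in either direction could have been missed.

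The density experiment asked how cultures on sparse and dense Matrigel differ. In the mesenchymal-like library 2 of the 7 genes tested were called, both higher: N-cadherin and cadherin-11, which is typical of mesenchymal cells and osteoblasts. Of all genes tested, 12.5% were called, 10.7% higher and 1.78% lower. Cdh2 had 61 counts (14.3 CPM) in the epithelial-like and 811 counts (196 CPM) in the mesenchymal-like library, a 13.7-fold higher level with a log2 ratio of 3.68 (3.40 to 4.17). Cdh11 had 12 counts (2.82 CPM) and 182 counts (43.9 CPM), 15.6-fold higher with a log2 ratio of 3.56 (3.12 to 4.94). Both genes were higher in the mesenchymal-like library than in any of the other 11 libraries, and for both that gap exceeded counting error. With a pseudocount of 5 the Cdh11 ratio was 2.65. The expected count of Cdh11 was fractional in 6 libraries, which is how reads shared with other genes appear. The other 5 members tested did not reach 2-fold, and Cdh3 was at 85.2 and 68.1 CPM (log2 ratio -0.32, -0.55 to -0.09). Cdh5, which was under the filter and left out of the main comparison, had 5 counts and 1 count.

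All 3 catenins were at higher levels in the mesenchymal-like library by less than 2-fold. Beta-catenin (Ctnnb1) was at 509 and 640 CPM (0.33, 0.25 to 0.41), and alpha-catenin (Ctnna1) at 192 and 291 CPM (0.60, 0.47 to 0.73). p120-catenin (Ctnnd1) was at 92.0 and 135 CPM (0.55, 0.36 to 0.74). These differences exceeded counting error, and their sizes were small beside those of Cdh2 and Cdh11. The median log2 ratio of the 7 genes was 0.55, against -0.06 for all genes tested. Summed over the 3 catenins, there were 6.62 catenin TPM for each TPM of the 5 cadherins in the epithelial-like library and 3.80 in the mesenchymal-like library, the lowest of the 12 libraries. The highest such ratio was 15.4, at day 0.

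Markers of other cells moved with these differences. The summed level of the fibroblast markers was 254 CPM in the epithelial-like and 4781 CPM in the mesenchymal-like library, with 11 of 12 markers called higher and a median log2 ratio of 4.09. The smooth muscle and peritubular markers summed to 36.6 and 284 CPM, the endothelial markers to 85.9 and 122 CPM, and the germ cell markers to 5447 and 4485 CPM. The part of these markers in the result was not tested. The germ cell markers had a median log2 ratio of -0.26, and with the ratios centred on it Cdh3 was at -0.05 and Ctnnb1, Ctnna1 and Ctnnd1 at 0.60, 0.86 and 0.81, still short of 2-fold. The 3 sorted fractions were grown at the same labelled Matrigel density as the mesenchymal-like culture. Their Cdh2 level was 3.96 to 9.02 CPM and their Cdh11 level 1.03 to 2.55 CPM, with fibroblast markers at 83.8 to 204 CPM. Sorting and experiment cannot be told apart in that contrast.

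**Figure D3:**
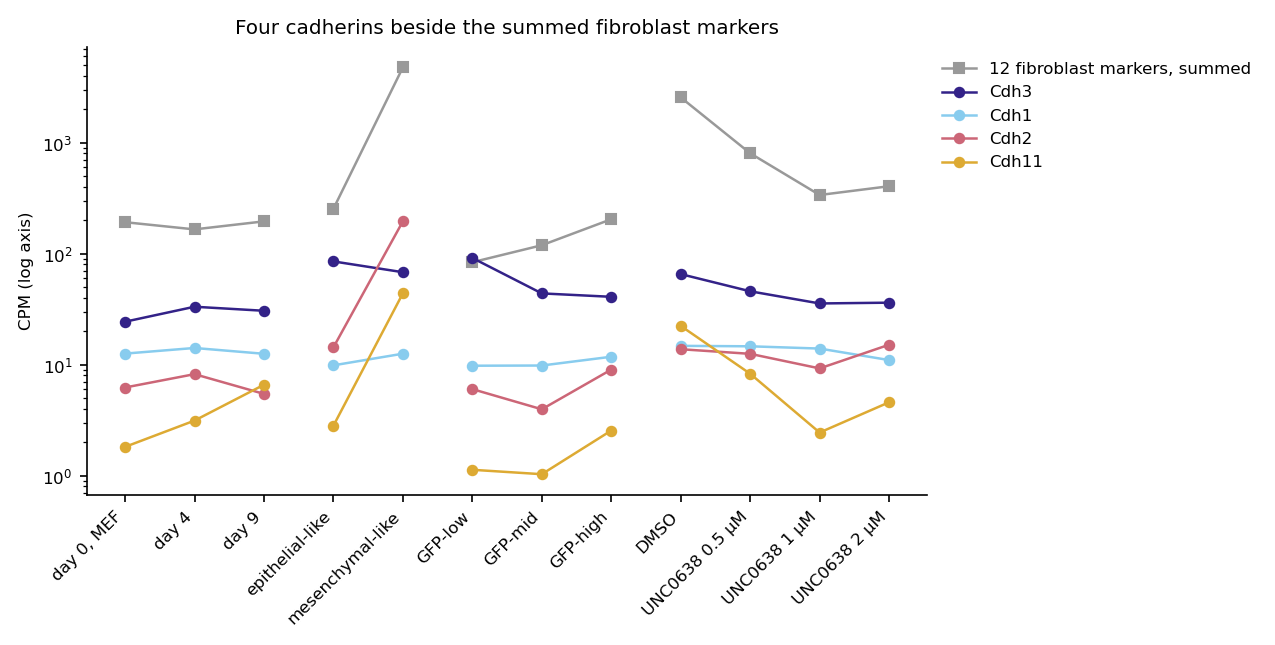
CPM (vertical axis, logarithmic) of Cdh1, Cdh2, Cdh3 and Cdh11 (circles) and the summed CPM of the 12 fibroblast markers (grey squares) in the 12 libraries (horizontal axis); lines join libraries of 1 experiment. The mesenchymal-like and DMSO libraries, at 4781 and 2563 CPM of fibroblast markers, hold the highest Cdh11 levels, 43.9 and 22.4 CPM.

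Other genes of the adhesion system were called mostly higher in the mesenchymal-like library, as were the genes called over all: 1527 higher and 254 lower, or 992 and 12 with a pseudocount of 5 and 1842 and 635 with one of 0.1. Of 13 other classical cadherins 6 passed the filter, with 1 higher and 1 lower (median log2 ratio -0.39). Cdh6, a cadherin of developing kidney, went from 0.939 to 22.2 CPM (3.58, 3.16 to 6.47), and passed the filter because of that library. Cdh12 had 13 counts and 1 count. Of 25 other members of the cadherin superfamily 15 passed the filter, with 5 higher and 0 lower (median 0.11). Cdh13, a cadherin anchored by a lipid instead of a transmembrane domain, was at 2.11 and 21.5 CPM (2.85, 2.36 to 4.52). The protocadherins Pcdh7 and Pcdh9 had 0 counts in the epithelial-like library and were at least 14.7-fold and 9.60-fold higher against the floor of 3 counts. Of 12 other plaque proteins and nectins that passed the filter, 2 were higher and 0 lower (median 0.36), Ctnnal1 and Ctnnd2. Plakoglobin (Jup), which can take the place of beta-catenin on the cadherin tail, was at 52.6 and 96.6 CPM (0.87, 0.64 to 1.12).

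Of 5 desmosomal genes that passed the filter 2 were higher and 0 lower (median 0.74): Perp, at 4.69 and 69.5 CPM (3.63, 3.23 to 4.62), and desmoplakin (Dsp), at 1.64 and 5.31 CPM. None of 7 genes for cadherin shedding and turnover was called (median 0.43). Among 7 tested repressors of Cdh1, 2 were higher and 0 lower (median 0.36). Zeb2 had 0 counts in the epithelial-like library and 20.5 CPM in the mesenchymal-like one, at least 29.1-fold higher, and Twist2 had 2 counts and 24.4 CPM. The other 5 were not called: Snai1 was at 51.9 and 66.9 CPM, Zeb1 at 21.6 and 38.6, Snai3 at 6.34 and 7.002, Twist1 at 5.63 and 3.62, and Klf8 at 87.8 and 56.3 CPM. Among 6 epithelial activators 2 were higher and 0 lower (median -0.39), Rbm35b (Esrp2) and Elf3, both at 16 or fewer counts, while Grhl2 was at 39.2 and 27.3 CPM (-0.51, -0.88 to -0.17).

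The genes of the Wnt branch of beta-catenin were read against the 12.5% of all genes called in the density experiment. None of 10 genes of the beta-catenin destruction complex (median -0.03) and none of 9 nuclear partners (median -0.16) was called. Of 10 tested target genes 2 were higher and 0 lower (median -0.17). The cyclin gene Ccnd1 was at 149 and 442 CPM (1.56, 1.44 to 1.70) and the growth regulator Myc at 6.10 and 42.7 CPM (2.62, 2.21 to 3.46). Axin2, a feedback inhibitor and widely used reporter of Wnt signalling, was at 10.1 and 11.3 CPM (0.15, -0.46 to 0.80). Myc and Ccnd1 also respond to many other signals.

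The sorted experiment asked how cells sorted by their Pou5f1 reporter signal compare, and both comparisons share the GFP-low library. P-cadherin was the 1 member of 7 called in each, and it was lower with more GFP. Cdh3 had 730, 554 and 385 counts in the fractions with low, mid and high GFP, or 91.5, 43.9 and 40.9 CPM. Its log2 ratio against GFP-low was -1.04 (-1.22 to -0.90) for GFP-mid and -1.14 (-1.35 to -0.98) for GFP-high. The GFP-mid and GFP-high fractions thus lay close together, both under the GFP-low fraction. Of all genes tested, 4.07% were called for GFP-mid and 9.54% for GFP-high. The call for GFP-mid was narrow, and a ratio of -0.98 was reached with total counts or a pseudocount of 5. The germ cell markers had median ratios of -0.25 and -0.30, and with the ratios centred on them Cdh3 fell short of 2-fold in both fractions, at -0.79 and -0.84, while Cdh11 passed it for GFP-high, at 1.04. Of these 12 markers, 1 was itself called lower for GFP-mid (Gfra1) and 4 for GFP-high. Those 4 belong to stem cell signalling and self-renewal: Gfra1 was at 176, 79.9 and 58.5 CPM, Ret at 705, 408 and 316, Etv5 at 614, 319 and 222, and Nanos2 at 26.3, 15.05 and 10.9 CPM.

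Myeloid and fibroblast markers differed between the fractions. The myeloid markers summed to 1745, 1550 and 207 CPM. The fibroblast markers summed to 83.8, 119 and 204 CPM, with 6 of 12 called higher for GFP-high. The part of either marker set in the Cdh3 result was not tested. Cdh11 had 9, 13 and 24 counts (1.13, 1.03 and 2.55 CPM), and its ratio for GFP-high was 0.74 (0.02 to 2.46). Cdh2 was at 6.02, 3.96 and 9.02 CPM, with ratios of -0.50 (-1.20 to -0.002) and 0.51 (0.06 to 1.13), so GFP-mid was the lowest of the 3. Its interval for GFP-mid left out 0 only narrowly. The GFP-mid ratio was -0.45 with total counts and -0.25 with centring on the germ cell markers.

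**Figure D4:**
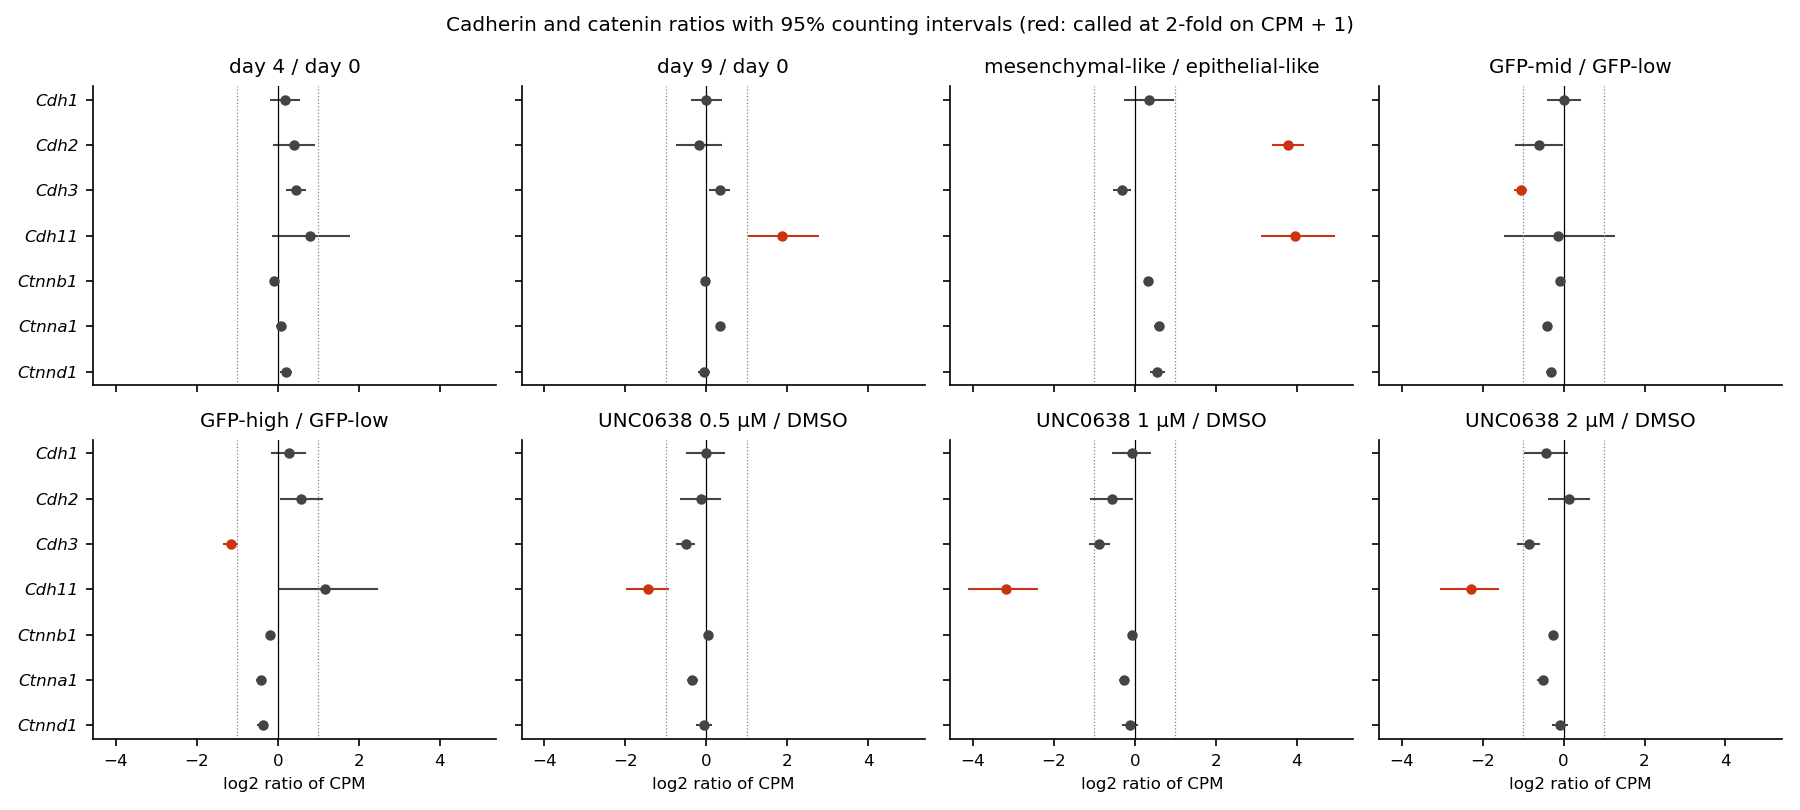
Log2 ratio of CPM (horizontal axis, without the added 1, so low genes lie farther out than the ratios in the text) of the 7 tested genes in the 8 comparisons (1 panel each); bars are 95% counting intervals, dotted lines mark 2-fold, and red marks genes called at 2-fold on CPM + 1. Cdh2 and Cdh11 are called in the density comparison, Cdh3 in both GFP comparisons, and Cdh11 alone at day 9 and at each dose of UNC0638.

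The catenins were at slightly lower CPM in the fractions with more GFP. Ctnna1 was at 169, 128 and 126 CPM, with ratios of -0.39 (-0.50 to -0.29) and -0.42 (-0.54 to -0.31). Ctnnd1 was at 131, 106 and 101 CPM, with ratios of -0.30 (-0.42 to -0.18) and -0.37 (-0.51 to -0.25). Ctnnb1 was at 544, 513 and 472 CPM, with ratios of -0.08 (-0.14 to -0.03) and -0.20 (-0.26 to -0.14), which turned to 0.17 and 0.10 with centring on the germ cell markers. The same centring brought Ctnna1 to -0.15 and -0.12 and Ctnnd1 to -0.05 and -0.07. No catenin reached 2-fold. The median ratio of the 7 genes was -0.30 for GFP-mid and -0.20 for GFP-high, against -0.01 and -0.02 for all genes tested.

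Over the other lists, 10 calls for GFP-high were higher and 3 lower, and over all genes tested 993 were higher and 371 lower. Arf6, a small GTPase of endocytic recycling of cadherins, was at 19.3, 58.1 and 160 CPM in the fractions with low, mid and high GFP, and was the 1 of 7 genes of shedding and turnover called in each comparison (2.99, 2.81 to 3.30, for GFP-high). Of 15 other superfamily members 3 were higher for GFP-high and 0 lower: the calsyntenin Clstn1, at 42.0 and 152 CPM (1.83, 1.68 to 2.03), Celsr1 and Pcdh8. Of 6 other classical cadherins 1 was higher, Cdh12, at 1 and 13 counts, and of 12 plaque proteins and nectins 2 were higher, the neural catenins Ctnna2 and Ctnnd2. Plakophilin Pkp3 was the 1 of 5 desmosomal genes called, higher. Of 7 Cdh1 repressors 1 was lower, Zeb2, at 5.39 and 0.849 CPM. None of 6 epithelial activators and none of 10 destruction complex genes was called, and of 9 nuclear partners Pygo1 was higher.

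Target genes of beta-catenin were split in the sorted fractions. Ccnd1 was at 124, 58.1 and 51.8 CPM, lower in both fractions (-1.07, -1.23 to -0.95, and -1.24, -1.41 to -1.10). Myc was lower for GFP-mid at 14 against 28 counts. For GFP-high, Lgr5 was lower, at 3 against 24 counts, and 5730593N15Rik (Notum), which encodes a secreted inhibitor of Wnt ligands, was higher at 32 against 5 counts. The counts were 0 higher and 2 lower of 10 for GFP-mid, and 1 higher and 2 lower for GFP-high.

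The inhibitor experiment asked how cells on feeders respond to inhibition of G9a, and its 3 comparisons share the DMSO library. Cadherin-11 was the 1 member of 7 called at each dose, and it was lower. Cdh11 had 112 counts with DMSO and 43, 14 and 20 counts with 0.5, 1 and 2 µM UNC0638, or 22.4, 8.28, 2.44 and 4.58 CPM. It was 2.70-fold lower at 0.5 µM (log2 ratio -1.33, -1.98 to -0.91), 9.15-fold lower at 1 µM (-2.76, -4.11 to -2.39) and 4.88-fold lower at 2 µM (-2.07, -3.05 to -1.59). The levels at 1 and 2 µM had overlapping counting intervals (1.34 to 4.10 and 2.80 to 7.08 CPM). With a pseudocount of 5 the ratio at 1 µM was -1.88. Of all genes tested, 3.71%, 6.71% and 7.01% were called at the 3 doses. The fibroblast markers summed to 2563, 804, 338 and 405 CPM, which is the same order of the libraries as for Cdh11, with 9, 12 and 10 of 12 called lower. Of these 12, Lum was at 14.2 CPM with DMSO and passed the filter because of that library. The endothelial markers summed to 134, 83.2, 74.2 and 74.5 CPM, with 1, 2 and 2 of 6 tested called lower and 0 higher. The part of either marker set in the Cdh11 result was not tested.

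Cdh3 was also at lower levels with UNC0638, short of 2-fold. It had 328 counts with DMSO and 238, 204 and 158 counts at the rising doses, or 65.5, 45.8, 35.6 and 36.2 CPM. Its log2 ratios were -0.51 (-0.76 to -0.27), -0.86 (-1.14 to -0.62) and -0.84 (-1.14 to -0.58), so each interval left out 0. The germ cell markers summed to 5151, 5621, 5410 and 5074 CPM in the same libraries. Cdh2 was at 13.8, 12.5, 9.25 and 15.1 CPM, with ratios between -0.53 and 0.13. Its interval left out 0 at 1 µM (-1.12 to -0.04). For Cdh1 the ratios were -0.01 (-0.49 to 0.47), -0.08 (-0.56 to 0.39) and -0.39 (-0.98 to 0.12), so E-cadherin transcripts showed no detectable difference with the inhibitor.

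Of the catenins, Ctnna1 differed most from DMSO. Its level was 229 CPM with DMSO and 181, 189 and 161 CPM at the rising doses, with ratios of -0.34 (-0.47 to -0.22), -0.28 (-0.40 to -0.16) and -0.51 (-0.65 to -0.38). Ctnnb1 was at 479, 494, 454 and 402 CPM in the same libraries, and its interval left out 0 at 2 µM (-0.25, -0.34 to -0.16). Ctnnd1 was at 87.0, 83.2, 79.9 and 82.2 CPM, and none of its 3 intervals left out 0. The median ratio of the 7 genes was -0.13, -0.28 and -0.39 at the 3 doses, against -0.01, 0.00 and -0.02 for all genes tested. The cadherin sum was 53.0 TPM with DMSO and 35.9, 27.6 and 29.6 TPM at the rising doses.

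Some repressors and protocadherins were lower with UNC0638. Of 7 repressors of Cdh1, 1, 2 and 1 were lower at the 3 doses. Twist2 was at 14.4, 4.62, 1.40 and 5.73 CPM, and Zeb2 was lower at 1 µM (7.79 and 1.22 CPM). Of 15 other superfamily members 1 was higher at each dose and 0, 4 and 2 lower. Cdh13 was at 6.39 CPM with DMSO and had 2 counts at 1 µM, and Pcdh7, Pcdh9 and Pcdh19 were also lower there. Of 6 other classical cadherins 1 was called, Cdh12, higher at 1 µM at 9 counts against 1. Of 12 plaque proteins and nectins 1 was called, Ctnna2, higher at 1 µM.

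The desmosomal and epithelial genes called with the inhibitor rested on few counts. Of 5 desmosomal genes Perp was higher at 0.5 and 2 µM and just short of 2-fold at 1 µM (2.00, 7.32, 4.89 and 5.73 CPM with DMSO and the rising doses) and Dsp lower at 2 µM. Of 6 epithelial activators Elf3 was higher at each dose, from 0 counts with DMSO to 4.12 CPM at 2 µM, at least 6.89-fold higher there. None of 7 shedding and turnover genes and none of 9 nuclear partners was called at any dose. Axin2 was at 6.79, 14.1, 11.7 and 17.4 CPM and was called at 2 µM (1.24, 0.76 to 1.99), the 1 of 10 destruction complex genes called. It is also on the target list, where Myc was lower at 0.5 and 2 µM and just short of 2-fold at 1 µM (14.6, 6.74, 7.16 and 5.27 CPM with DMSO and the rising doses) and Lgr5 at 2 µM. Target genes of beta-catenin thus moved in both directions.

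The feeder-removal experiment asked what changes once the cells leave the feeder layer, and its comparisons share the day 0 library. At day 4, 0 of 7 members were called, against 2.28% of all genes, and at day 9, 1 of 7 against 2.6%. The call at day 9 was Cdh11, at 14, 37 and 81 counts (1.81, 3.13 and 6.59 CPM) at days 0, 4 and 9, with a ratio of 1.43 (1.03 to 2.79). With a pseudocount of 5 that ratio was 0.77, short of 2-fold. The fibroblast markers summed to 192, 166 and 196 CPM, with Col1a1 the largest at 70.5, 58.7 and 74.8 CPM, and 1 of the 12 was called at day 9, Postn, higher at 6.43 against 1.94 CPM. At day 4, 1 was called higher, Lum, and 1 lower, Fbn1. Their part in the Cdh11 result was not tested. Smooth muscle and peritubular markers summed to 71.7, 82.3 and 30.8 CPM.

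The other members stayed close to their day 0 levels after feeder removal. Cdh3 was at 24.4, 33.3 and 30.6 CPM, with ratios of 0.43 (0.19 to 0.71) and 0.32 (0.07 to 0.59). Cdh2 was at 6.22, 8.21 and 5.45 CPM, with both intervals including 0. Ctnnb1 was at 453, 426 and 439 CPM and Ctnnd1 at 79.3, 90.98 and 75.7 CPM. Ctnna1 was at 140, 147 and 177 CPM, and its ratio at day 9 was 0.33 (0.23 to 0.44). The median ratio of the 7 genes was 0.20 at day 4 and 0.00 at day 9, against 0.03 and 0.02 for all genes tested.

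Of the other lists, Axin2 was higher at both times, at 3.37, 8.89 and 8.14 CPM (1.18, 0.77 to 2.08, and 1.06, 0.64 to 1.95), the 1 of 10 destruction complex genes called. Of 10 target genes, Axin2 and Lgr5 were higher at both times, and Lgr5 had 0, 16 and 21 counts. Dsg2, a desmosomal cadherin, was the 1 of 5 desmosomal genes higher at day 4, at 4 and 40 counts, and it passed the filter because of that library. Of 7 repressors Zeb2 was lower at day 4 and Twist2 at day 9. Of 12 plaque proteins and nectins, Ctnnd2 and Pkp4 were higher at day 9. Of 15 superfamily members, Cdh13 was higher and Pcdh19 lower at day 9. In the other classical cadherins, the shedding and turnover genes, the epithelial activators and the nuclear partners, 0 genes were called at either time.

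The 2 feeder cultures without inhibitor, 1 of them given DMSO, differed from each other. As a yardstick chosen after the data were seen, the DMSO library was set against day 0, both being on MEF. Of 7 members 3 were called higher with DMSO, against 19.4% of all genes called in either direction. The ratios were 1.03 (0.59 to 1.71) for Cdh2, 1.39 (1.16 to 1.69) for Cdh3 and 3.05 (2.82 to 4.54) for Cdh11. Cdh1 (0.22, -0.22 to 0.68) was not among them. The fibroblast markers summed to 192 CPM at day 0 and 2563 CPM with DMSO. The Cdh11 ratio between these feeder cultures was larger in size than its ratio at any dose of the inhibitor, and was 2.01 with a pseudocount of 5. Cdh2 fell short of 2-fold with the deposited TPM (0.88), a pseudocount of 5 (0.74) or centring on the germ cell markers (0.69).

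VE-cadherin (Cdh5), the cadherin of endothelial junctions, was near the limit of detection. It had 43 counts in the 12 libraries together, from 0 to 10 in each, and 7 libraries were at or under 3 counts. Its mean of 0.570 CPM put it under the filter, so it was left out of the main comparisons. With the filter dropped it was included, and it was called in none of them. Of the endothelial markers, Tie1, Emcn, Cldn5 and Esam1 were at most 0.524, 0.175, 0.939 and 0.399 CPM in any library, so 4 of the 10 stayed under 1 CPM. The other 6 were above it in every library: Flt1 was at 13.3 to 83.6 CPM, Egfl7 at 19.7 to 37.2, Eng at 3.44 to 18.8, Pecam1 at 3.30 to 11.0, Tek at 1.40 to 8.95 and Kdr at 1.30 to 7.27 CPM.

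Ctnnb1 and Ctnna1 were above each of the 5 cadherins in TPM in all 12 libraries. Ctnnd1 was not: Cdh3 was above it in the epithelial-like, GFP-low and DMSO libraries, and Cdh2 in the mesenchymal-like library. On the TPM scale Ctnnb1 (186 to 266) exceeded Ctnna1 (61.1 to 117), and Ctnna1 exceeded Ctnnd1 (24.3 to 39.9), in every library. Ctnnb1 ranked between 564 and 986 of the 27128 genes by TPM, Ctnna1 between 1425 and 3070, and Ctnnd1 between 4221 and 5758. The highest library exceeded the lowest 1.59-fold for Ctnnb1, 2.31-fold for Ctnna1 and 1.78-fold for Ctnnd1 in CPM, against 1.51-fold for Cdh1, 3.76-fold for Cdh3, 49.4-fold for Cdh2 and 42.7-fold for Cdh11. In CPM all 3 catenins were highest in the mesenchymal-like library, whereas in TPM Ctnnd1 was highest in the GFP-low fraction. In the order of the 12 levels, 3 of 11 neighbouring pairs could be told apart beyond counting error for Ctnnb1, 3 for Ctnna1 and 1 for Ctnnd1. For Ctnnd1 that pair was the GFP-low and GFP-mid fractions, so its mesenchymal-like and GFP-low levels, at 135 and 131 CPM, could not be told apart.

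The order of the cadherin levels was resolved at few places. For Cdh2 the 1 pair told apart was the mesenchymal-like library, at 196 CPM, and 2 µM UNC0638, at 15.1 CPM. For Cdh11 the 2 pairs were the mesenchymal-like library over DMSO, and DMSO over 0.5 µM. For Cdh3, 3 of 11 pairs were told apart: the epithelial-like over the mesenchymal-like library, DMSO over 0.5 µM, and day 9 over day 0. The highest Cdh3 levels, 91.5 CPM in the GFP-low fraction and 85.2 CPM in the epithelial-like library, could not be told apart. By TPM rank, Cdh3 lay between 3785 and 7503, Cdh1 between 9741 and 11151, Cdh2 between 2762 and 13321 and Cdh11 between 6926 and 15880.

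The genes whose pattern was most like that of the 3 called members were sought among 14294 genes. Likeness was the mean absolute difference in log2(CPM + 1) over the 12 libraries, after each experiment's mean was taken out. For Cdh3 the nearest was Mmp9, a secreted protease, with a mean difference of 0.04, against a mean deviation of Cdh3 itself of 0.29, followed by Pskh1 and LOC100039746 at 0.11 each. Mmp9 was at 132, 67.1 and 55.5 CPM in the fractions with low, mid and high GFP, at 67.8 CPM in the epithelial-like and 56.3 CPM in the mesenchymal-like library, and at 61.9, 42.4, 32.5 and 32.5 CPM with DMSO and the rising doses. At days 0, 4 and 9 Mmp9 was at 15.8, 20.0 and 20.7 CPM, so Mmp9, like Cdh3, was lowest at day 0 and highest in the GFP-low fraction.

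For Cdh2 the nearest genes were the receptor kinase Axl (0.16), AI447904 (0.17) and the tubulin Tuba1a (0.17), against a mean deviation of Cdh2 of 0.51. Axl was at 20.4 CPM in the epithelial-like and 300.4 CPM in the mesenchymal-like library. For Cdh11 they were the collagen-binding integrin Itga11 (0.15), the secreted factor Serpinf1 (0.20) and Dscr1l1 (0.21), against 0.80. Dscr1l1 was at 10.4 CPM in the mesenchymal-like library and passed the filter because of that library. These likenesses are descriptions over 12 libraries of 4 experiments.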

How the data were processed

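The authors deposited, per the file headers, an expected count (an estimated count from RSEM) and a TPM for each gene of 12 RNA libraries, prepared with a modified Smart-seq2 per the labels. Per the submitters' processing notes, Trim Galore, RSEM and mm10 were used; versions and annotation are not given in the sources used here. The deposited TPM was used as given; the FPKM column and 4 ATAC libraries were not analysed here. Expected counts were rounded and scaled by TMM to CPM (edgeR 4.0.16, R 4.3.3); intervals came from scipy 1.17.1. As alternatives, libraries were scaled by total counts, by size factors (DESeq2 1.42.0) or by the deposited TPM; pseudocounts were 0.1 or 5; the filter was dropped or raised to 10 CPM; and ratios were centred on germ cell markers. All 8 genes are named, then genes of the lists, first those called with the largest CPM, and the 3 genes most like each called member. The members and lists were chosen with earlier results of these data known. Positions are from the RefSeq table of GRCm38.p6, in which all 8 genes matched by accession.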

Additional observations from a re-analysis of the deposited data

How the results depend on the processing

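No comparison of the 8 genes changed direction in a called ratio under any alternative run. The number of members called was 0 for day 9 with a pseudocount of 5 or a filter of 10 CPM, 1 for the density comparison with a filter of 10 CPM, and 0 at each UNC0638 dose with that filter, because Cdh11 then fell under it. For GFP-mid it was 0 with total counts, a pseudocount of 5 or centring on germ cell markers, and for GFP-high 2 with a pseudocount of 0.1, Cdh11 being added. With centring on germ cell markers the number for GFP-high stayed at 1, but Cdh3 was no longer called and Cdh11 was called higher. With all classical cadherins in the pool, Cdh3 led 6 libraries, in the GFP-high fraction narrowly. Counts over all genes depended on the pseudocount and the filter: with a pseudocount of 5, 17, 30, 1004, 182, 521, 76, 302 and 228 genes were called at day 4, day 9, the density comparison, GFP-mid, GFP-high and 0.5, 1 and 2 µM. With a pseudocount of 0.1 they were 1031, 1025, 2477, 1267, 2150, 1169, 1656 and 1751. A filter of 10 CPM gave 29, 84, 680, 280, 622, 96, 303 and 285 in the same order. Centring on germ cell markers, whose median it sets to 0, moved the split of higher and lower genes from 1527 and 254 to 2112 and 111 for the density comparison, from 484 and 98 to 1035 and 35 for GFP-mid, from 993 and 371 to 1901 and 208 for GFP-high, from 226 and 305 to 149 and 454 at 0.5 µM, from 489 and 514 to 726 and 394 at 2 µM, and from 1743 and 1033 to 966 and 2229 for DMSO against day 0. The germ cell medians removed, which shift the ratios of all genes, were -0.26 for the density comparison, -0.25 for GFP-mid, -0.30 for GFP-high, 0.13 at 0.5 µM, -0.12 at 2 µM and 0.34 for DMSO against day 0. With the deposited TPM the median of all genes was 0.13 at day 9 and 0.12 for GFP-high. No paired analysis was possible because each RNA group was 1 library. For the same reason no library could be left out within a group.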
